A study of Mus musculus with 35 samples.

Results

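The genes described here are 8 enzymes that oxidise aldehydes or hydrolyse esters in mouse lung: the aldehyde oxidases Aox3 and Aox1, the aldehyde dehydrogenases Aldh1a1, Aldh1a7, Aldh2 and Aldh3a1, and the carboxylesterases Ces1d and Ces1g. They were taken by symbol from the array annotation, 8 of 17097 genes, and the brightest probe set of a gene over all arrays stood for it. Only Aldh2 had further probe sets, which served as a check. The members were measured in whole lung of wild-type adult male C57Bl/6 mice that inhaled styrene once for 6 h. Tissue was collected on the next morning. The control group breathed air (0 ppm), and the other groups inhaled 1, 5, 10, 20, 40 or 120 ppm, with 5 Affymetrix HT MG-430 PM arrays in each of the 7 groups. The values are log2 signals, in which a difference of 1 is a change of 2-fold. The labels name the arrays biological replicates, but 1 array at 1 ppm (replicate 5) and 1 at 5 ppm (replicate 1) carry the same title number, so p-values measure the spread between these arrays.

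Styrene is oxidised in the lung mainly by the cytochrome P450 Cyp2f2 of club cells, the secretory cells of the bronchioles, and part of its side chain then passes through aldehydes to acids. Aldehyde dehydrogenases carry out that step with NAD as the acceptor, while aldehyde oxidases are molybdenum enzymes that use oxygen and also attack nitrogen-containing rings. Carboxylesterases of the Ces1 family cleave esters and amides, lipids and drugs among them, in the endoplasmic reticulum. In whole tissue, a lower signal from fewer cells of a type and one from less RNA per cell cannot be told apart.

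The libraries carried the RNA of lung. All measured markers of alveolar type 2 cells (4 genes), alveolar type 1 cells (5 genes) and club cells (5 genes) were above the highest nonspecific control on all 5 arrays at 0 ppm. Hepatocyte markers averaged 5.46 to 9.19 on 5 arrays (2 at 0 ppm, 2 at 1 ppm and 1 at 20 ppm) and at most 4.64 on the others, and counts of members are given with and without those 5 arrays. The 120 ppm arrays stood apart: the poly-A spike-in controls, RNA added in known amount, averaged 8.36 ± 0.35 (SD, n = 5) there against 6.67 ± 0.12 (SD, n = 5) at 0 ppm, a difference of 1.69 (two-sided exact permutation test, p = 0.00794, the smallest that 5 against 5 arrays can give; adjusted p = 0.0476 over 18 tests). The highest nonspecific control rose with them, from 6.08 ± 0.17 to 7.16 ± 0.28 (SD, n = 5), and the median of all genes lay 0.15 above 0 ppm. The upper quartile of an array's signals was 6.32 to 6.77 at 120 ppm and 6.95 to 6.97 at 0 ppm. The part of these shifts in the 120 ppm results was not tested.

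Between 4 and 6 of the 8 members were lower at each dose from 10 ppm upwards, and 1 was higher at 5 ppm. At 1 ppm no member passed the threshold (limma, adjusted p of 0.05 over 17097 genes), against a background of 0% of all genes higher and 0% lower, while 3 members had an unadjusted p under 0.05, all on the higher side. At 5 ppm 1 member rose, Ces1g, and none fell (2 were lower at an unadjusted p under 0.05), where 1.13% of all genes were higher and 0.0234% lower. At 10 ppm 4 members fell and none rose, against 6.62% of all genes lower and 5.17% higher. The count of members that fell was 6 at 20 ppm (6.74% of all genes lower, 6.45% higher) and 5 at 40 ppm (5.04% lower, 7.69% higher), and no member rose at either dose. In these 3 groups 1, 1 and 0 members were higher and 7, 6 and 6 lower at an unadjusted p under 0.05. Of all 17097 genes, 1190 and 1103 were under it in either direction at 1 and 5 ppm. At 10, 20 and 40 ppm 3809, 4165 and 4105 were. At 120 ppm 6 members fell and 2 rose, but there 31.9% of all genes were lower and 42.9% higher. Of these 6, Ces1g was under the highest nonspecific control on all arrays in air and at 120 ppm, and cyclic loess scaling ended its call. All 8 members were among the 8077 genes brighter on average than the highest nonspecific control. In a fit of those 8077 genes alone, 1034, 1063, 734 and 4117 fell at 10, 20, 40 and 120 ppm. These are larger shares than over all genes, so the all-gene shares that fell are low for genes this bright. Without the 5 arrays bright for hepatocyte markers, a step chosen after seeing the data, the counts that fell were 3, 5, 4 and 6 at 10, 20, 40 and 120 ppm, Ces1g remained the 1 member that rose at 5 ppm, and 1 member rose at 120 ppm. In that fit 726, 636, 425 and 5172 of the 17097 genes fell at 10, 20, 40 and 120 ppm, and 144 and 6423 rose at 5 and 120 ppm. The median log2 difference of the 8 members from 0 ppm was 0.10, -0.09, -0.40, -0.53, -0.59 and -1.81 in order of dose. The median of all genes stayed between -0.02 and 0.01 up to 40 ppm.

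**Figure D1:**
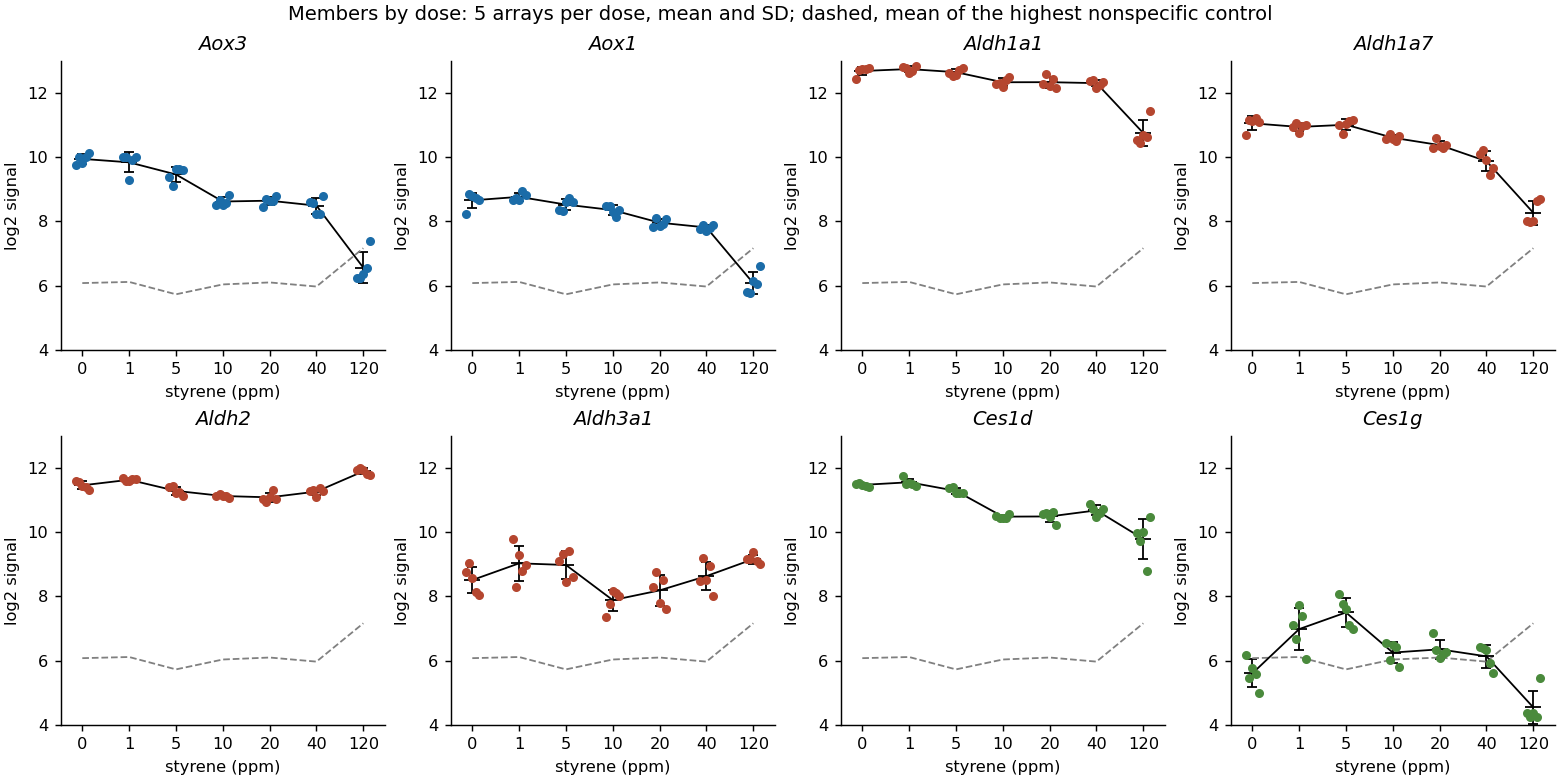
Log2 signal (vertical axis) of each member against the styrene dose in ppm (horizontal axis, doses evenly spaced): points are single arrays, 5 per dose, the black line joins group means with SD bars, and the dashed grey line is the mean of the highest nonspecific control. Aox3 and Ces1d step down between 5 and 10 ppm, Aldh1a7 declines over 10, 20 and 40 ppm, Aldh2 is highest at 120 ppm, and Ces1g is highest at 5 ppm, with its mean under the dashed line at 0 and 120 ppm.

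Aox3 encodes one of several aldehyde oxidases of the mouse and is annotated by RefSeq (GRCm38.p6) at chr1:58113135-58202221. Its probe set 1418858_PM_at read 9.76, 10.02, 9.83, 10.01 and 10.13 on the 5 air arrays and 10.01, 10.01, 9.28, 9.91 and 10.00 at 1 ppm. At 5 ppm the signals were 9.38, 9.10, 9.62, 9.63 and 9.59, each below every air array. At 10 ppm they were 8.51, 8.68, 8.52, 8.56 and 8.83, more than 1 log2 unit under the air mean of 9.95 ± 0.15 (SD, n = 5). The levels then held: 8.45, 8.69, 8.64, 8.65 and 8.80 at 20 ppm, and 8.62, 8.57, 8.23, 8.24 and 8.79 at 40 ppm. Those 3 groups overlapped one another, and none of them overlapped the 5 ppm group.

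The 5 ppm difference of Aox3 did not pass the threshold over all genes (log2 difference -0.49, SE 0.16, limma adjusted p = 0.262, 0.0198 to 0.629 over the alternatives). At 10 ppm Aox3 was 2.52-fold below air (log2 difference -1.33, SE 0.16, adjusted p = 3.68e-07), at 20 ppm 2.47-fold and at 40 ppm 2.75-fold. The step from 5 to 10 ppm was itself past the threshold (-0.84, SE 0.16, adjusted p = 0.00143), and the difference of -0.13 between 40 and 10 ppm was not (adjusted p = 0.746). At 120 ppm the signals were 6.24, 6.22, 6.37, 6.56 and 7.39, and 4 of the 5 arrays were under the highest nonspecific control. Aox3 was therefore at least 6.28-fold lower than in air, a bound set by that control.

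Aox1, a further aldehyde oxidase, lies next to Aox3 at chr1:58029809-58106410, with 6724 bases between the annotated genes. The air arrays of probe set 1419435_PM_at read 8.24, 8.84, 8.80, 8.73 and 8.67. At 5 ppm they read 8.35, 8.33, 8.60, 8.72 and 8.62, and at 10 ppm 8.49, 8.49, 8.28, 8.14 and 8.36, with both groups overlapping air. At 20 ppm (7.84, 8.11, 7.85, 7.92 and 8.08) and at 40 ppm (7.77, 7.90, 7.71, 7.79 and 7.88) every array was below every air array. Aox1 fell 1.62-fold at 20 ppm (-0.69, SE 0.12, adjusted p = 0.000107) and 1.79-fold at 40 ppm (-0.84, SE 0.12, adjusted p = 6.7e-06). Its 10 ppm difference of -0.30 missed the threshold (adjusted p = 0.112, 0.00366 to 0.45 over the alternatives), and it was past it without the first air array, whose 8.24 was the lowest of its group (-0.41, adjusted p = 0.0232). From 10 to 40 ppm Aox1 fell further (-0.54, SE 0.12, adjusted p = 0.00574). At 120 ppm all 5 arrays, from 5.76 to 6.60, were under the highest nonspecific control, so that Aox1 was at least 2.81-fold lower than in air.

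Aox3 thus passed the threshold against air from 10 ppm and Aox1 from 20 ppm. The 5 ppm arrays of Aox3 were already all below air without passing, and how many of all genes separate in this way is not given here. Without the outlying first air array of Aox1 (8.24, others 8.67 to 8.84), Aox1 also passed at 10 ppm. On each array the Aox3 signal minus that of Aox1 removes what both share, and this difference moved by -0.36 at 5 ppm and -1.03 at 10 ppm relative to air, with all 5 arrays of each group below all 5 air arrays. It was smaller again at 20 ppm (-0.61) and 40 ppm (-0.62). At 120 ppm both probe sets were under the control on 4 or 5 of 5 arrays, so no difference is read there. The 4 shifts from 5 to 40 ppm reached the lowest p available with 5 against 5 arrays, 0.00794 (exact permutation, two-sided), or 0.0159 after adjustment over 24 comparisons of 4 pairs and 6 doses. At 1 ppm the difference of -0.22 did not pass (exact permutation p = 0.214, adjusted p = 0.254).

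The promoter table of RefSeq (GRCm38.p6), which holds 250 bases before and 50 after a start, had an entry for 5 of the 8 members. The windows were searched on both strands for the core of the xenobiotic response element, GCGTG, to which the dioxin receptor AHR binds with ARNT, and for the antioxidant response element TGACNNNGC, to which NRF2 binds with small MAF proteins. Both oxidases held GCGTG once, Aox3 on the gene's own strand from base -125 and Aox1 on the opposite strand from base -137, where it reads CACGC. The 30 bases around each match are shown because they are the only matches found among the members, with the match in capitals, in the direction of the gene. The Aox3 stretch is at chr1:58112999-58113028 and the Aox1 stretch at chr1:58029820-58029849, the second inside the annotated span of Aox1 because another start is annotated upstream.
Aox3: ctagcgcctgggGCGTGgagaagtgagtcc
Aox1: cagcttgtctccCACGCtggcacactctgt
The share of all 32851 promoter windows with GCGTG was 32.4%, and that with TGACNNNGC 12.4%. Neither motif was found in the windows of Aldh1a1, Aldh1a7 or Ces1g, and TGACNNNGC was in none of the members' windows. A match is only a run of letters in this window. Aldh2, Aldh3a1 and Ces1d were not analysed here for motifs.

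Aldh1a1 is the cytosolic dehydrogenase that turns retinaldehyde into retinoic acid and also oxidises aldehydes from lipid peroxidation. It lies at chr19:20492583-20643463, and probe set 1416468_PM_at was brighter than 99.4% of all genes, at a mean of 12.26 with the brightest gene signal of any array at 13.97. Whether signals this bright are compressed was not tested. The air arrays read 12.45, 12.71, 12.76, 12.74 and 12.79. At 10 ppm the signals were 12.30, 12.32, 12.18, 12.41 and 12.49, at 20 ppm 12.28, 12.59, 12.23, 12.45 and 12.16, and at 40 ppm 12.38, 12.42, 12.17, 12.25 and 12.34. Of these 3 groups only that at 40 ppm did not overlap air.

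The differences of Aldh1a1 in this dose range were near the threshold: -0.35 at 10 ppm (SE 0.12, adjusted p = 0.0516, 0.000705 to 0.239 over the alternatives), -0.35 at 20 ppm (adjusted p = 0.0497, 0.000219 to 0.158) and -0.38 at 40 ppm (adjusted p = 0.0306, 0.000286 to 0.187). The SE pools all 7 groups, and the SD was 0.14 in air and 0.40 at 120 ppm. The 10 ppm difference passed with array weights, with only the groups compared (limma adjusted p = 0.0163) and without the 120 ppm group (0.00254), among other settings. It did not pass with centred arrays, repeated quantile normalisation or without the 5 arrays bright for hepatocyte markers. The calls at 20 and 40 ppm were lost when arrays were centred on their medians, when quantile normalisation was repeated and without the 5 arrays bright for hepatocyte markers, and that at 20 ppm also when all probe sets were tested together or without both arrays that share a title number. Without the 5 arrays bright for hepatocyte markers the differences were -0.37 and -0.34, and with centred arrays -0.32 and -0.33, close to those over all arrays. These calls were also lost without any 1 of replicates 2 to 5 at 0 ppm. The 20 ppm call was lost without replicate 1, 3, 4 or 5 at 20 ppm, and the 40 ppm call without replicate 3 or 4 at 40 ppm. At 120 ppm the signals were 10.55, 10.44, 10.70, 10.63 and 11.45, and Aldh1a1 was 3.83-fold below air (-1.94, SE 0.12, adjusted p = 2.04e-15).

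Aldh1a7 is a rodent paralogue of Aldh1a1 at chr19:20692953-20727556, 49.5 kb from it. Its air arrays (probe set 1418601_PM_at) read 10.69, 11.15, 11.12, 11.24 and 11.10, and the 5 ppm arrays 11.02, 10.73, 11.05, 11.12 and 11.15. From there the mean stepped down with every dose: 10.58, 10.72, 10.57, 10.51 and 10.67 at 10 ppm, 10.30, 10.59, 10.34, 10.28 and 10.39 at 20 ppm, and 10.10, 10.22, 9.93, 9.46 and 9.68 at 40 ppm. The 40 ppm arrays were all below the 20 ppm arrays, which in turn were all below air. Aldh1a7 fell 1.36-fold at 10 ppm (-0.45, SE 0.14, adjusted p = 0.0267), 1.60-fold at 20 ppm (-0.68, adjusted p = 0.000635) and 2.27-fold at 40 ppm (-1.18, adjusted p = 1.54e-07). The 10 ppm call was lost (adjusted p of 0.0517 to 0.078) without any 1 of replicates 2, 3, 4 and 5 at 0 ppm or replicates 1 and 4 at 10 ppm, and at adjusted p = 0.211 without the 5 arrays bright for hepatocyte markers. From 10 to 40 ppm Aldh1a7 fell by 0.73 on the log2 scale (SE 0.14, adjusted p = 0.00115). At 120 ppm it read 8.02, 7.97, 8.01, 8.63 and 8.71, which was 6.92-fold below air (-2.79, adjusted p = 1.99e-17).

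On the same arrays Aldh1a1 and Aldh1a7 moved unequally at the higher doses. Aldh1a1 minus Aldh1a7 was 1.63 ± 0.10 in air, 1.73 ± 0.13 at 10 ppm, 1.96 ± 0.15 at 20 ppm and 2.43 ± 0.27 at 40 ppm (SD, n = 5 each; two-sided exact permutation p = 0.222 at 10 ppm and 0.00794 at 20 and 40 ppm). The adjusted p was 0.0159 at 20, 40 and 120 ppm. The part of the bright signal of Aldh1a1 in this difference was not tested. The paralogues are close in sequence, so their values are uncertain as far as each probe set also binds the other's RNA, which was not tested either.

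The 250 bases upstream of the Aldh1a7 start and of the downstream one of the 2 Aldh1a1 starts are shown because these neighbouring paralogues, which moved unequally, share a run of 65 identical bases there, printed in capitals. The Aldh1a1 stretch is at chr19:20601718-20601967 on the plus strand, within the annotated gene, and the Aldh1a7 stretch at chr19:20727557-20727806 on the minus strand, both written in the direction of the gene.
Aldh1a1: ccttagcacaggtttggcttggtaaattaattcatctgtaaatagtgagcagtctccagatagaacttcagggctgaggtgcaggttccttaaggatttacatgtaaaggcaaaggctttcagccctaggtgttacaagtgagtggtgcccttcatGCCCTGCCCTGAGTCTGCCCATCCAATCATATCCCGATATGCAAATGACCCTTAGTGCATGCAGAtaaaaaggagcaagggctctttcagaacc
Aldh1a7: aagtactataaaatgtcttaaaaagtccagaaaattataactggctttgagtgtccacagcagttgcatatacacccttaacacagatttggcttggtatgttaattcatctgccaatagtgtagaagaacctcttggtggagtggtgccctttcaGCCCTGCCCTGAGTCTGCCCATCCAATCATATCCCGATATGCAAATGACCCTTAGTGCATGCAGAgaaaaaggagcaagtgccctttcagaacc
In a global alignment 185 of 228 aligned base pairs were identical (81.1%, with 44 gap positions). The upstream Aldh1a1 start gave 158 of 207 with 86 gap positions, and the promoters of Aox3, Aox1 and Ces1g 145 to 152 identical bases with 70 to 94 gap positions.

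Aldh2 is the mitochondrial dehydrogenase that clears acetaldehyde, and lies at chr5:121566027-121593824. Its brightest probe set, 1448143_PM_at, read 11.61, 11.56, 11.44, 11.41 and 11.31 in air. At 10 ppm the signals were 11.12, 11.21, 11.13, 11.14 and 11.07, and at 20 ppm 11.04, 10.96, 11.11, 11.31 and 11.04, neither group reaching above the lowest air array. At 40 ppm they overlapped air again (11.28, 11.31, 11.10, 11.38 and 11.29), and at 120 ppm all arrays were above it (11.96, 12.00, 11.95, 11.82 and 11.79). Aldh2 fell 1.26-fold at 10 ppm (-0.33, SE 0.07, adjusted p = 0.00166) and 1.29-fold at 20 ppm (-0.37, adjusted p = 0.000468). The difference at 40 ppm was -0.19 (adjusted p = 0.0848, 0.0455 to 0.282 over the alternatives). At 120 ppm Aldh2 was 1.36-fold higher (0.44, SE 0.07, adjusted p = 2.51e-06), against the all-gene median of 0.15.

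A second Aldh2 probe set, 1437410_PM_at, gave larger falls of -0.70 at 10 ppm, -0.83 at 20 ppm and -0.48 at 40 ppm, each past the threshold when all probe sets were tested together (adjusted p = 8.47e-05, 7.3e-06 and 0.00657). It did not pass at 120 ppm (0.17, SE 0.12, adjusted p = 0.187), so the probe sets disagree on the call at that dose. The third, 1457155_PM_at, was above the highest nonspecific control on only 1 array at 5 ppm and 1 at 40 ppm and is not read further.

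Aldh3a1 oxidises medium-chain and aromatic aldehydes, is abundant in the cornea and lies at chr11:61208510-61218418. Probe set 1418752_PM_at varied more between arrays of a group up to 40 ppm (SD 0.33 to 0.55) than the other aldehyde dehydrogenases did, with 8.75, 9.04, 8.59, 8.14 and 8.04 in air and 9.78, 8.31, 9.29, 8.81 and 8.98 at 1 ppm. At 5 ppm it read 9.12, 9.33, 8.45, 9.41 and 8.60, and at 10 ppm 7.36, 7.77, 8.17, 8.11 and 8.02. All 10 ppm arrays were below all 5 ppm arrays, while both groups overlapped air. No dose from 1 to 40 ppm passed the threshold against air, with differences of 0.52, 0.47, -0.62, -0.32 and 0.12 (SE 0.25). The step from 5 to 10 ppm did pass (-1.10, SE 0.25, adjusted p = 0.00654, 0.00328 to 0.0313 over the alternatives).

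At 120 ppm Aldh3a1 read 9.16, 9.17, 9.39, 9.11 and 9.0, above 4 of the 5 air arrays, and was 1.57-fold higher than in air (0.66, SE 0.25, adjusted p = 0.0187, 0.000351 to 0.0645 over the alternatives). That call was lost without replicate 4 (adjusted p = 0.056) or replicate 5 (adjusted p = 0.0645) at 0 ppm, and without the 5 arrays bright for hepatocyte markers (adjusted p = 0.0553). Aldh2 minus Aldh3a1 passed only at 5 ppm (-0.64, two-sided exact permutation p = 0.0238, adjusted p = 0.0408, lost under repeated quantile normalisation and without any 1 of the arrays involved except replicate 2 at 0 ppm), and at the other doses it ranged from -0.35 to 0.29.

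Ces1d, a carboxylesterase of liver, fat and lung that releases fatty acids from triacylglycerol, lies at chr8:93166072-93197804. Probe set 1449081_PM_at was even across the air arrays, at 11.51, 11.54, 11.47, 11.45 and 11.43. The 5 ppm arrays were slightly lower, at 11.38, 11.40, 11.23, 11.24 and 11.22, with no overlap. At 10 ppm Ces1d read 10.51, 10.44, 10.46, 10.46 and 10.58, at 20 ppm 10.57, 10.60, 10.47, 10.62 and 10.22, and at 40 ppm 10.89, 10.73, 10.49, 10.59 and 10.73. These 3 groups formed one level that stayed clear of both air and 5 ppm.

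Against air Ces1d did not pass at 5 ppm (-0.19, SE 0.16, limma adjusted p = 1) and fell 1.99-fold at 10 ppm (-0.99, SE 0.16, adjusted p = 2.59e-05), 1.98-fold at 20 ppm and 1.74-fold at 40 ppm. The SE pools all 7 groups, and the SD was 0.05 in air, 0.09 at 5 ppm and 0.62 at 120 ppm. At 5 ppm the limma adjusted p was at least 0.351 over the alternatives. As for Aox3, the fall lay between 5 and 10 ppm (-0.81, SE 0.16, adjusted p = 0.00155), and 40 ppm did not differ from 10 ppm past the threshold (0.20, SE 0.16, adjusted p = 0.554). At 120 ppm the signals spread from 8.78 to 10.47 (9.98, 9.74, 10.00, 8.78 and 10.47), with a mean 3.22-fold below air (-1.69, SE 0.16, adjusted p = 2.21e-11). Every call of Ces1d, in each comparison, held under all alternatives that were run.

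Ces1g, a paralogue known from liver lipid metabolism, lies at chr8:93302369-93337209 and had its highest group mean at 5 ppm. In air, probe set 1449486_PM_at read 6.18, 5.47, 5.78, 5.58 and 4.99, under the highest nonspecific control of each array. At 1 ppm it read 7.10, 6.66, 7.72, 7.39 and 6.04, with 4 arrays above that control, and at 5 ppm 8.07, 7.75, 7.61, 7.11 and 6.97, with all 5 above it. The 5 ppm arrays were all brighter than the air arrays, and the 1 ppm arrays except replicate 5 were as well. Ces1g then dropped back to 6.54, 6.03, 6.48, 6.41 and 5.79 at 10 ppm, 6.87, 6.33, 6.07, 6.22 and 6.27 at 20 ppm, and 6.41, 6.39, 6.32, 5.94 and 5.60 at 40 ppm. These groups overlapped air and had 3 or 4 of 5 arrays above the control.

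At 5 ppm Ces1g was at least 2.68-fold higher than in air, a bound set by the control (measured log2 difference 1.90, SE 0.27, limma adjusted p = 1.53e-05, at most 0.00129 over the alternatives). At 1 ppm only 4 of 5 arrays were above the control, so no fold bound is given. The measured difference there did not pass over all genes (1.38, SE 0.27, adjusted p = 0.105, 0.00166 to 0.456 over the alternatives). It passed with array weights (adjusted p = 0.00166), without replicate 5 (adjusted p = 0.0098) or replicate 2 (adjusted p = 0.0401) at 1 ppm, and without both arrays that share a title number (adjusted p = 0.00667). The differences at 10, 20 and 40 ppm were 0.65, 0.75 and 0.53 (adjusted p = 0.123, 0.0586 and 0.222). From 5 to 10 ppm Ces1g was at least 2.29-fold lower (adjusted p = 0.00368). At 120 ppm it read 4.38, 4.24, 4.37, 4.25 and 5.46, under the control on all arrays, so no fold against air is given. The measured means were 4.54 at 120 ppm and 5.60 in air (limma adjusted p = 0.000714), a call that cyclic loess scaling ended (adjusted p = 0.0661).

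Ces1d minus Ces1g on the same array was 5.88 ± 0.42 in air, 4.58 ± 0.62 at 1 ppm and 3.79 ± 0.39 at 5 ppm (SD, n = 5 each). The shifts of -1.30 at 1 ppm and -2.09 at 5 ppm were past the threshold (two-sided exact permutation p = 0.0159 and 0.00794, adjusted p = 0.0293 and 0.0159), the first of them lost without any 1 of 8 of the 10 arrays. At 10, 20 and 40 ppm the shifts were -1.64, -1.74 and -1.33 (adjusted p = 0.0159 each). At 120 ppm no difference is read, since Ces1g was under the control there and in air. The air values of Ces1g, against which all these shifts are taken, lie under the control, which limits what these differences can show. Genes of the Ces1 family are alike, and how far a probe set binds RNA of another member was not tested.

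**Figure D2:**
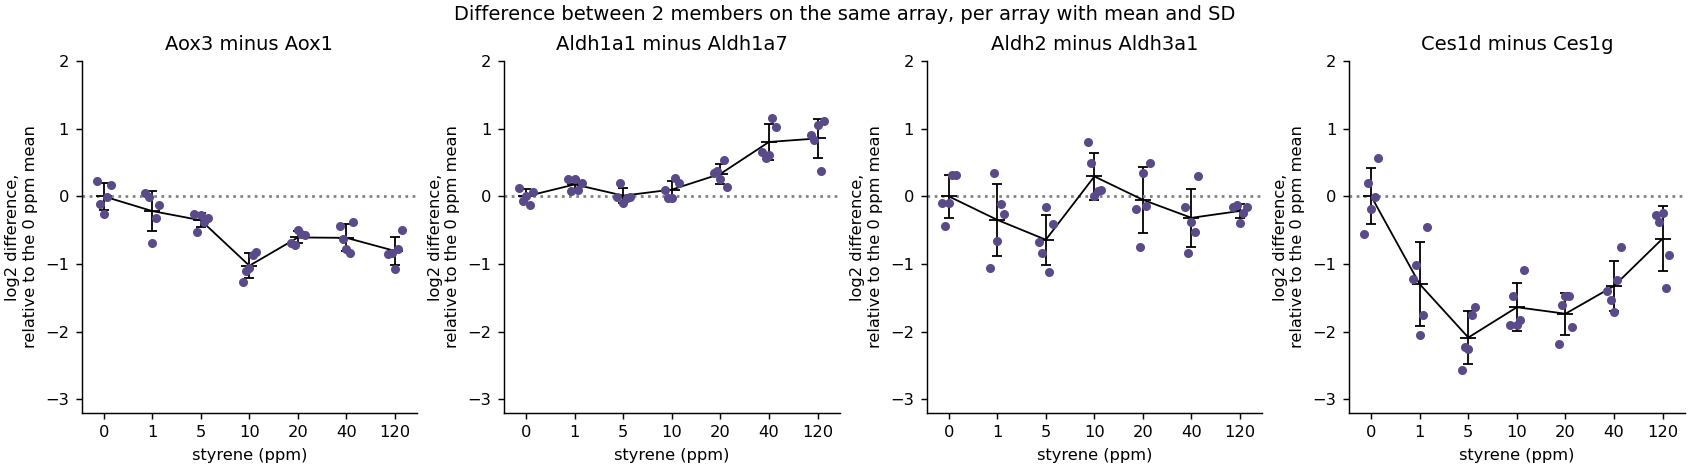
Difference in log2 signal between 2 members on the same array, relative to the 0 ppm mean (vertical axis), against the styrene dose in ppm (horizontal axis, doses evenly spaced): points are single arrays, 5 per dose, and the line joins means with SD bars. Aox3 minus Aox1 is lowest at 10 ppm (-1.03), Aldh1a1 minus Aldh1a7 is raised at 20, 40 and 120 ppm, and Ces1d minus Ces1g is lowest at 5 ppm (-2.09), with Ces1g at 0 and 120 ppm and both oxidases at 120 ppm mostly or wholly under the nonspecific control.

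The comparisons between styrene doses were 10 against 5 ppm, 40 against 10 ppm and 120 against 40 ppm. From 5 to 10 ppm 4 of 8 fell (Aox3, Aldh3a1, Ces1d and Ces1g) and none rose at either an adjusted or an unadjusted p under 0.05, where 3.14% of all genes were lower and 1.5% higher. From 10 to 40 ppm 2 fell, Aox1 and Aldh1a7, against 1.64% of all genes lower and 4.25% higher, and none rose, with 1 (Aldh3a1) higher at an unadjusted p under 0.05. At that unadjusted level 7 members were lower from 5 to 10 ppm, where 2744 of the 17097 genes were under it in either direction. From 10 to 40 ppm 2 members were lower at that level and 3349 genes were under it. From 40 to 120 ppm 6 fell and Aldh2 rose, with 31.1% of all genes lower and 39.8% higher. These comparisons share groups with those against air and with one another.

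The slope on log2(dose + 1) over the 30 arrays from 0 to 40 ppm was negative and past the threshold for 6 members, while 12.9% of all genes had a negative and 13.2% a positive slope past it. Aox3 had a slope of -0.31 log2 units per unit of that scale (SE 0.03, limma adjusted p = 2.59e-10), Ces1d -0.21, Aldh1a7 -0.20, Aox1 -0.18, Aldh1a1 -0.09 and Aldh2 -0.08. The Aldh2 call was lost when the slope was taken on the dose in ppm (adjusted p = 0.0514, 0.000136 to 0.0514 over the alternatives). Aldh3a1 (-0.08, SE 0.05, adjusted p = 0.301) and Ces1g (0, SE 0.07, adjusted p = 0.973) did not pass, and a straight line describes neither the step of Aox3 and Ces1d nor the peak of Ces1g. Splits of all genes into higher and lower shifted by over 10 percentage points under other scalings in 4 comparisons. With arrays centred on their medians 71.9% rather than 60.4% of changed genes were higher at 40 ppm, and 65.8% rather than 50.6% of slopes were positive. With cyclic loess the higher share was 45.3% rather than 32.4% from 5 to 10 ppm and 61.5% rather than 72.2% from 10 to 40 ppm.

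Further enzymes of the same pathways were taken from 4 lists. None of the 17 other aldehyde dehydrogenases passed at 1 or 5 ppm. At 10 ppm 4 fell and 2 rose (median log2 difference -0.20), and at 20 and 40 ppm 1 fell and 1 rose. Of all genes 6.62%, 6.74% and 5.04% fell and 5.17%, 6.45% and 7.69% rose at these 3 doses. The counts at 20 and 40 ppm are near those shares. Aldh6a1, of valine breakdown, was 1.69-fold lower at 10 ppm (-0.76, SE 0.18, adjusted p = 0.00296). Aldh5a1, which clears the aldehyde formed from the transmitter GABA, fell at 10, 20 and 40 ppm (measured differences -0.70, -0.72 and -0.70, limma adjusted p = 0.000851, 0.000611 and 0.000954). Only 3 of its 5 air arrays were above the control, so no fold bound is given.

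Aldh1a3, a further retinaldehyde dehydrogenase, passed in the higher direction at 10 ppm, with a mean signal of 5.01 ± 0.56 against 3.33 ± 0.23 in air (SD, n = 5 each, adjusted p = 7.03e-06). At 20 ppm its mean was 4.21 ± 0.63 (adjusted p = 0.0121). All its arrays were under the highest nonspecific control, so no fold is given. Aldh18a1, of proline synthesis, averaged 5.49 ± 0.21 in air, where no array was above the control, and 6.07 ± 0.12 at 10 ppm, where 3 of 5 were (SD, n = 5 each, adjusted p = 0.0126), and the control sets no bound above 1 for its fold.

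Of the 14 other carboxylesterases and esterases measured, 4, 5 and 3 fell at 10, 20 and 40 ppm and 1 rose at each. At these doses 6.62%, 6.74% and 5.04% of all genes fell and 5.17%, 6.45% and 7.69% rose. The other 9, 8 and 10 genes of the list did not pass, and the list's median log2 differences were -0.36, -0.32 and -0.27. Ces1e, a close relative of Ces1d, averaged 6.19 ± 0.33 in air and 4.73 ± 0.14 at 10 ppm (SD, n = 5 each). Its measured differences were -1.46, -1.44 and -1.19 at 10, 20 and 40 ppm (limma adjusted p = 2.79e-07, 4.14e-07 and 1.17e-05). Only 3 of its 5 air arrays were above the control, so no fold bound is given. Ces1f was at least 1.49-fold lower at 10 ppm, at least 1.41-fold lower at 20 ppm and at least 1.52-fold lower at 40 ppm, the first of these calls lost under quantile normalisation (adjusted p = 0.0561). Ces2b (-0.56, -0.61 and -0.65) passed at the same 3 doses, with all arrays there under the control. Ces2g was at least 1.42-fold lower at 20 ppm (adjusted p = 0.0195, lost under repeated quantile normalisation at 0.0547). The gene that rose was Esd, S-formylglutathione hydrolase, chosen after its values were seen, by 0.32, 0.45, 0.58 and 0.51 at 5, 10, 20 and 40 ppm on the log2 scale, the first of these calls lost with centred arrays (adjusted p = 0.155).

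Among 12 alcohol dehydrogenases and aldehyde reductases, 2 rose at 5, 10, 20 and 40 ppm, where 1.13%, 5.17%, 6.45% and 7.69% of all genes rose. The counts that fell were 0, 1, 2 and 2, where 0.0234%, 6.62%, 6.74% and 5.04% of all genes fell. The list's median log2 differences were 0.11, -0.15, -0.10 and -0.07. Akr1b8, an aldo-keto reductase that reduces reactive aldehydes, rose 1.60-, 2.21-, 2.78- and 2.87-fold at these doses (adjusted p = 0.0131, 2.19e-06, 2.37e-08 and 1.36e-08), and did not pass at 120 ppm (0.20, adjusted p = 0.241). Cbr3, a carbonyl reductase, rose by 0.62, 0.33, 0.35 and 0.46 on the log2 scale, the 10 ppm call (adjusted p = 0.0499) lost with centred arrays (0.0669) and repeated quantile normalisation (0.0503). Dhrs3, which turns retinaldehyde back into retinol, fell 1.63-, 1.66- and 1.37-fold at 10, 20 and 40 ppm (adjusted p = 8.72e-06, 4.66e-06 and 0.00248) but was 1.27-fold higher than air at 120 ppm (adjusted p = 0.00349), and Adh1 fell 1.36-fold at 40 ppm (adjusted p = 0.0484, lost with centred arrays at 0.101). Of the 8 measured molybdenum enzymes and cofactor genes other than the members, none passed at 1, 5, 10 or 40 ppm, and Mtarc2 (-0.29, adjusted p = 0.0425, lost with centred arrays at 0.105) fell at 20 ppm.

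**Figure D3:**
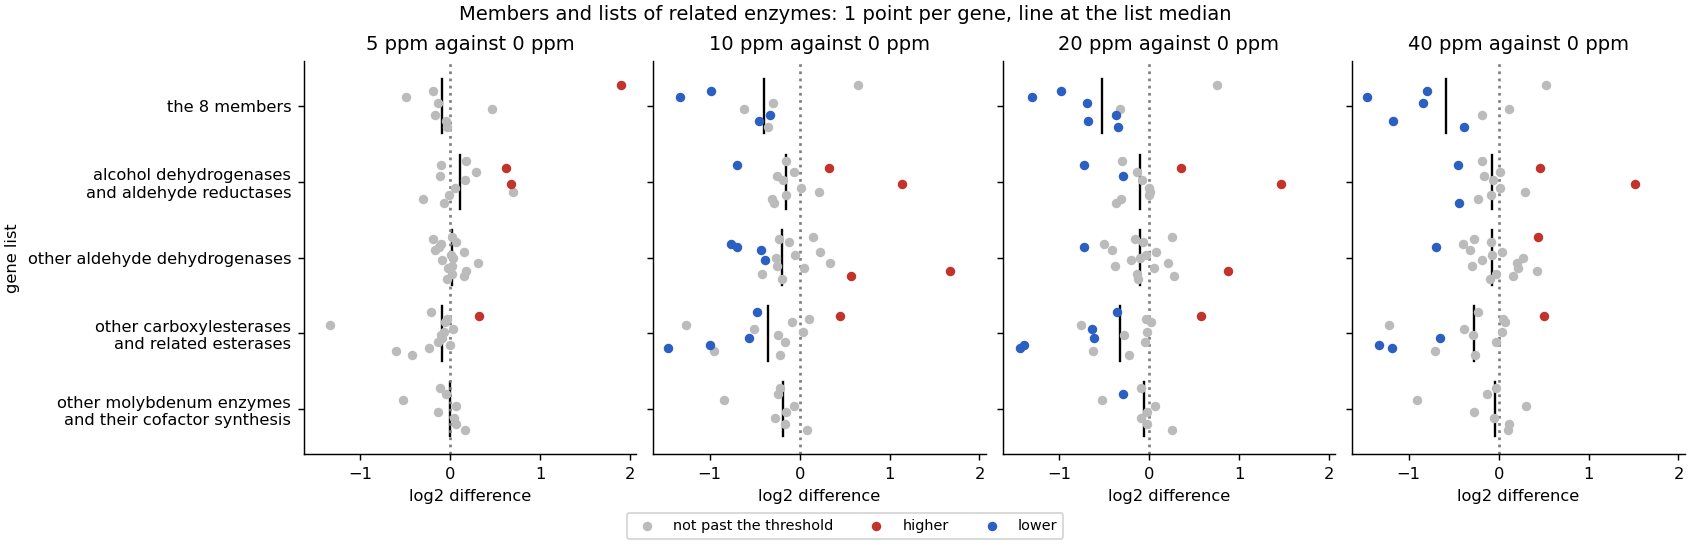
Log2 difference from 0 ppm (horizontal axis) of the 8 members and of the 4 lists of related enzymes (rows), at 5, 10, 20 and 40 ppm (panels): each point is a gene, blue where it fell, red where it rose and grey where it did not pass the threshold, and the black line is the list's median. The members' medians are -0.09, -0.40, -0.53 and -0.59, and Akr1b8 is the red point farthest to the right at 20 and 40 ppm.

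Some markers of several cell types passed the threshold at the same doses as the members. At 10, 20, 40 and 120 ppm 6.62%, 6.74%, 5.04% and 31.9% of all genes fell. At these doses 5.17%, 6.45%, 7.69% and 42.9% rose. For bright genes the shares that fell are larger, as given above. A count of 1 gene in lists this short is not read as a change of the cell type. Of 5 club cell markers in all, the numbers that fell at 10, 20, 40 and 120 ppm were 2, 3, 4 and 5, and none passed at 1 or 5 ppm. The mean of the list was 12.23 to 12.68 over the air arrays, 12.02 to 12.38 at 10 ppm, 11.52 to 12.31 at 20 ppm, 11.79 to 12.16 at 40 ppm and 10.92 to 11.79 at 120 ppm. Cyp2f2 fell by 0.54 at 10 ppm and 0.69 at 40 ppm on the log2 scale, and Scgb1a1, the main secretory protein of these cells, differed by -0.04 and -0.15, the last a call that was lost with centred arrays (adjusted p = 0.327) and repeated quantile normalisation (0.193). Scgb3a2, a further secretory protein, fell by 0.31 at 10 ppm, a call also lost with centred arrays (adjusted p = 0.0541). No club cell marker was under the nonspecific control on all arrays of a group. Of 5 alveolar macrophage markers 2 fell at 10, 20 and 40 ppm, among them Siglecf (-1.15 at 10 ppm) and Pparg (-0.78), while 2, 2 and 1 rose, and the list mean was 8.45 to 8.60 in air and 8.17 to 8.38 at 10 ppm. Of 6 fibroblast markers 2, 2 and 3 fell and 2, 1 and 1 rose at these doses, with a list mean of 8.60 to 8.86 in air and 8.61 to 8.82 at 10 ppm. Of 4 mesothelium markers 3 fell at 10 ppm (list mean 7.60 to 8.25 in air, 6.66 to 7.30 at 10 ppm) and none passed at 20 or 40 ppm. Of 6 endothelium markers 3 fell at 20 ppm and 1 at 40 ppm, with a list mean of 9.90 to 10.10 in air and 9.58 to 9.75 at 20 ppm. The part of these cell type signals in the members' falls was not tested.

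Markers of ciliated cells did not pass at any dose up to 40 ppm (0 of 6), with list means of 7.33 to 7.97 in air and 7.59 to 7.80 at 10 ppm. At 120 ppm 4 of 6 fell and 1 rose, where 31.9% of all genes fell and 42.9% rose. Of 6 goblet cell markers 1 rose at 5 ppm, 2 at 10 ppm and 1 each at 20 and 40 ppm, and the list mean was 5.21 to 6.50 in air, 6.07 to 8.33 at 5 ppm and 7.50 to 8.67 at 10 ppm. Of all genes 1.13%, 5.17%, 6.45% and 7.69% rose at 5, 10, 20 and 40 ppm. None of the 4 measured alveolar type 2 markers passed up to 40 ppm. On the 2 air arrays bright for hepatocyte markers, Aox3 averaged 9.92 against 9.97 on the other 3, Ces1d 11.46 against 11.49, Aldh2 11.42 against 11.49 and Ces1g 5.68 against 5.55, while Aox1 averaged 8.76 against 8.58, Aldh1a1 12.75 against 12.65, Aldh1a7 11.18 against 10.98 and Aldh3a1 8.36 against 8.61. At 20 ppm the 1 such array read 8.76 for Aldh3a1 against a mean of 8.05 on the other 4.

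**Figure D4:**
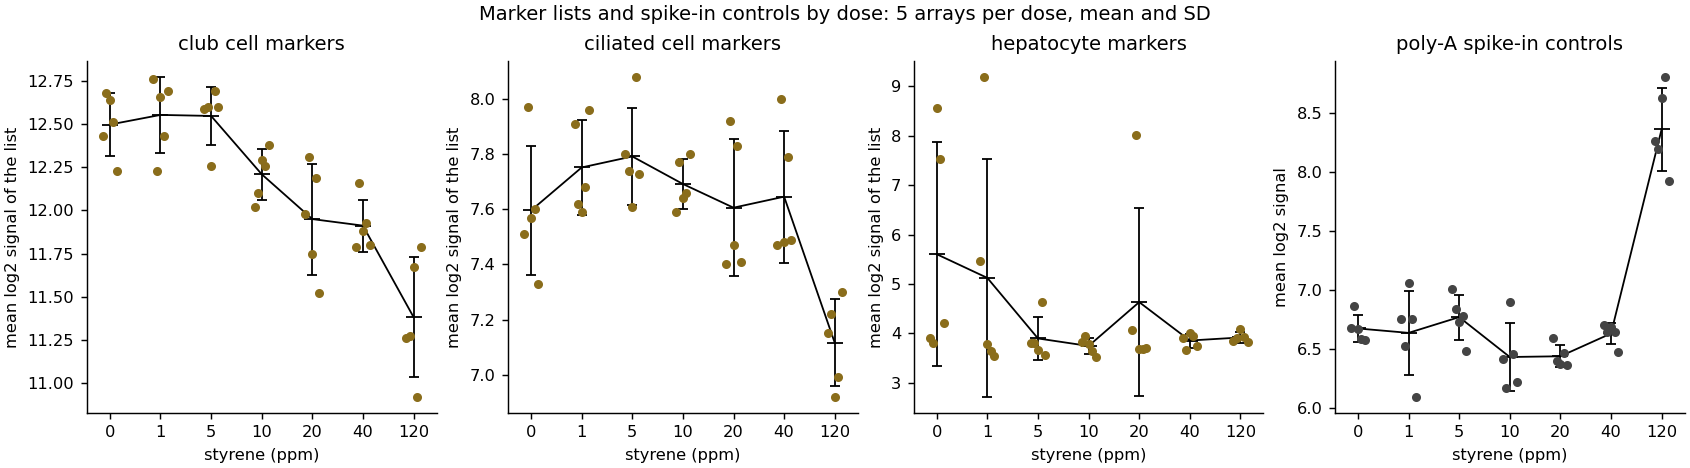
Mean log2 signal of club cell, ciliated cell and hepatocyte marker lists and of the poly-A spike-in controls (vertical axes, each with its own range) against the styrene dose in ppm (horizontal axis, doses evenly spaced): points are single arrays, 5 per dose, with means and SD bars. Club cell markers decline from 10 ppm on, hepatocyte markers are bright on 5 arrays, and the spike-in controls average 8.36 at 120 ppm against 6.67 at 0 ppm.

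The genes whose signal followed each member most closely were found by Pearson correlation over the 30 arrays from 0 to 40 ppm. These arrays share doses and scaling, so the values describe likeness only. Aox3 was most like Pon1 (r = 0.94), Cbr2 (0.93) and Cldn8 (0.93), and Ces1d most like Mettl7a1 (0.97), Cbr2 (0.96) and Ces1e (0.95). Aldh1a1 followed Cat (0.90), Cldn8 (0.90) and Cyp2f2 (0.89), and Aldh2 followed Gsn (0.88), Lpin1 (0.87) and Pnrc1 (0.86). Aox1 was closest to Myo5c (0.93), Jmy (0.91) and Stard9 (0.91), and Aldh1a7 to Paip2, Cd55 and Ncbp2 (0.94 each). Aldh3a1 stood with Fam166c (0.93), Tmem212 (0.89) and Ak8 (0.89). Ces1g had the weakest neighbours, Rnasek (0.70), Cbr1 (0.69) and Rnaset2b (0.68). Among the members themselves the highest values were 0.90 for Aox3 with Ces1d, 0.89 for Aox3 with Aldh1a1 and 0.89 for Aox1 with Aldh1a7, and Ces1g reached 0.47 with Aldh3a1 and at most 0.25 with any other member.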

How the data were processed

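Lung RNA from 35 arrays, 5 at each of 7 styrene doses, was analysed. The deposited values are log2 signals per probe set, which the authors normalised. RMA and Partek were used, per the submitters' processing notes. Their versions, settings and any scan batches are not known here. Of 45141 probe sets 104 were controls, 28898 were listed with 1 gene, 551 with several and 15588 with none. The brightest probe set stood for each of 17097 genes.

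With limma 3.58.1 (lmFit, eBayes, R 4.3.3), 1 mean was estimated for each dose from the 35 arrays together, with Benjamini-Hochberg adjustment over the 17097 genes of a comparison and a threshold of 0.05. "Rose", "fell" and "called" are used only past it. SE is limma's. Pair differences and controls were tested by exact permutation (scipy 1.17.1). A probe set under the brightest of 23 nonspecific controls on an array has only an upper bound there, and "at least" folds use that control. They are given only where every array of the brighter group was above it. The number of arrays limits precision. The step was tested on simulated data.

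The members, the pathway and marker lists and the comparisons were chosen with earlier results of these data known. Named genes were the 8 members, up to 4 called genes per pathway list with the largest difference at 10, 20 or 40 ppm, and the 3 genes most correlated with each member. Alternatives covered background set, dim genes, variance, weights, scaling, arrays fitted, block, thresholds, probe sets and arrays left out. Aox2 was left out because the annotation uses it as a synonym of Aox1. Sequences are from RefSeq (GRCm38.p6), aligned with Biopython 1.88. Further tools were the R package data.table (version 1.17.8), pandas 2.3.3 and numpy 2.4.6 in Python 3.11.15, and figures were drawn with matplotlib 3.10.9.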

Additional observations from a re-analysis of the deposited data

Results flagged for a closer look

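Among 56 groups of 5 arrays (8 members at 7 doses), 7 held an array that lay far from the other 4, with a gap to its nearest neighbour of 0.71 to 0.89 of the group's range. Chance alone gives about 1 in 20 groups. Replicate 1 at 0 ppm was the low array for Aox1 (8.24, others 8.67 to 8.84), Aldh1a1 (12.45, others 12.71 to 12.79) and Aldh1a7 (10.69, others 11.10 to 11.24). Replicate 5 at 120 ppm was the high array for Aox3 (7.39, others 6.22 to 6.56), Aldh1a1 (11.45, others 10.44 to 10.70) and Ces1g (5.46, others 4.24 to 4.38). Among the 120 ppm arrays it also had the lowest poly-A mean (7.93), the dimmest highest nonspecific control (6.71) and the highest upper quartile of signals (6.77). The part of these array shifts in its member signals was not tested. Replicate 3 at 1 ppm was low for Aox3 (9.28, others 9.91 to 10.01). Members of one array share their RNA, so these are 3 arrays and not 7 separate ones.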

How the results depend on the processing

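Of 2136 alternative values for the members, 2015 kept direction and side of the threshold, 41 lost a call, 61 gained one and 19 changed sign, each of these called in neither setting. Besides arrays left out singly, the sign changed for Aldh1a1 (0) and Aldh1a7 (0.03) at 5 ppm without the 5 arrays bright for hepatocyte markers, for Aldh1a1 from 10 to 40 ppm with centred arrays (0.01), and for the Ces1g slope on the dose in ppm (-0.01), on its rank (-0.01) and without those 5 arrays (-0.03). With 1 array left out the ranges that crossed 0 were -0.16 to 0.03 (Aox3, 1 ppm), -0.14 to 0.02 (Aldh1a7, 5 ppm), -0.01 to 0.28 (Aldh3a1, 40 ppm), -0.07 to 0.01 (Aldh1a1, 40 against 10 ppm), -0.23 to 0.01 (Ces1g, 40 against 10 ppm), -0.04 to 0.03 (Ces1g slope), -0.04 to 0.04 (Aldh1a1 minus Aldh1a7, 5 ppm) and -0.19 to 0.12 (Aldh2 minus Aldh3a1, 20 ppm). The cause was not tested.

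Samples were not treated as paired by replicate number, since in no comparison were all 5 same-numbered pairs correlated over 0.1. That rule cannot exclude a block shared by some of them. Against 0 ppm 4 of 5 pairs were over 0.1 at 5 ppm and at 120 ppm, and the pairs at 40 ppm ranged from 0.08 to 0.48. With the replicate block 1 member (Ces1g) was higher at 20 ppm, 1 (Aldh3a1) at 40 against 10 ppm and 2 (Aldh2 and Aldh3a1) at 120 against 40 ppm, and Aldh1a1 passed at 10 ppm (adjusted p = 0.039). Ces1g at 20 ppm was also past the threshold over genes above the controls, with array weights, cyclic loess, only the groups compared, an adjusted p of 0.1, without both arrays sharing a title number and without the 120 ppm group (1 member each). Array weights also gave 1 member higher at 1, 10 and 40 ppm and 1 lower at 5 ppm, and 1 was higher at 1 ppm without both arrays sharing a title number. A fold of at least 1.5 left 2 members lower at 10 ppm, 1 higher at 120 ppm and 1 lower from 10 to 40 ppm. Without the 5 arrays bright for hepatocyte markers 1 member was higher at 120 ppm. Aldh3a1 was 1 member higher from 10 to 40 ppm over genes above the controls, with array weights, only the groups compared, an adjusted p of 0.1 and without those 5 arrays. Averaging probe sets made that 1 member Aldh2. From 40 to 120 ppm 2 members were higher over genes above the controls, with centred arrays, cyclic loess, only the groups compared, an adjusted p of 0.1 and without those 5 arrays.

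Counts of changed genes moved as follows from 0, 198, 2016, 2255, 2177 and 12792 at 1 to 120 ppm, 794 (10 against 5 ppm), 1006 (40 against 10 ppm), 12116 (120 against 40 ppm) and 4448 (slope). All non-control probe sets gave 3394, 4012, 3891 and 30146 at 10 to 120 ppm, 1895 at 40 against 10 ppm, 27506 at 120 against 40 ppm and 9548 for the slope. Array weights gave 43, 321, 3586, 4061 and 3883 at 1 to 40 ppm, 1896 at 10 against 5 ppm and 2708 at 40 against 10 ppm. A fold of at least 1.5 gave 799, 870, 838 and 8174 at 10 to 120 ppm and 297, 370 and 7583 between doses. Without the 5 arrays bright for hepatocyte markers 1334, 1298 and 1195 genes passed at 10, 20 and 40 ppm. Genes above the controls gave 7132 at 120 ppm and 7040 at 120 against 40 ppm, with 42.3% rather than 57.4% of changes higher at 120 ppm. At 10 against 5 and 40 against 10 ppm the counts were 1212 and 1669 with only the groups compared, 1208 and 1632 at an adjusted p of 0.1, and 1428 and 1753 without the 120 ppm group. At 1 ppm 1 gene passed without that group and 1 without both arrays sharing a title number.

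With 1 array left out the members higher numbered 0 to 1 at 1 and 20 ppm and at 40 against 10 ppm, and 1 to 2 at 120 ppm and at 120 against 40 ppm. The members lower numbered 3 to 6 at 10 ppm, 5 to 6 at 20 ppm and 4 to 5 at 40 ppm. The changed genes numbered 0 to 6 at 1 ppm, 484 to 763 at 10 against 5 ppm (484 without replicate 2 at 10 ppm) and 483 to 1166 at 40 against 10 ppm (483 and 632 without replicates 2 and 1 at 10 ppm, 608 without replicate 4 at 40 ppm). Between 12 and 15 of the 24 differences within a family then passed, counting those at 120 ppm that lie under the control. Signals near or under the nonspecific controls (Ces1g, and both oxidases at 120 ppm) limit what can be read, and leaving out the arrays bright for hepatocyte markers or the 120 ppm group was chosen after seeing the data.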
